A study of Mus musculus with 12 samples.

Results

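The genes described here are 34 listed genes of the hypoxia response and of glycolysis, of which 31 were measured among 19938 genes in mouse induced pluripotent stem cells (iPSCs) and cells differentiated from them. For each listed gene the probe set annotated with that symbol alone was taken, and where there were several, the one with the highest mean over all 12 arrays. Gpi1, Eno1 and Gapdh had no probe set that listed only their symbol and were dropped. The 31 genes comprised 2 glucose transporters, 9 enzymes of upper glycolysis, 3 of lower glycolysis, 4 genes of pyruvate and lactate handling, Hif1a with 2 oxygen sensors, and 10 other genes of the hypoxia response. The list was chosen with earlier results of these data in view.

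Total RNA was hybridised to 1-colour Affymetrix arrays in 4 groups of 3 samples. The control group held undifferentiated iPSCs at day 0. The other groups, all at day 4, held cells that had differentiated spontaneously (spontaneous), cells taken through an optimised cardiac differentiation (cardiac, marked EB + ck in the labels, which do not expand it), and a fraction sorted by flow cytometry for both FLK1, encoded by Kdr, and PDGFRα, encoded by Pdgfra, which the labels describe as enriched for cardiac progenitor cells (sorted). The labels give no iPSC line, medium, differentiation factors or oxygen tension for any group, and do not say whether separate cultures gave the 3 samples of a group. The p-values therefore reflect no more than the variation among these arrays, and that variation could be technical. Values are log2 signals made by RMA (robust multi-array average), so a difference of 1 is a doubling of signal, and levels of different genes are not compared because each probe set has its own response.

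In cells with enough oxygen the prolyl hydroxylases encoded by Egln1 and Egln3 mark the HIF-1α protein, the product of Hif1a, for destruction. When oxygen falls, HIF-1α persists, pairs with ARNT and binds short DNA sequences that contain ACGTG or GCGTG near genes for glucose uptake, glycolysis, lactate export, mitochondrial removal and blood vessel growth. Egln1 and Egln3 are themselves induced by HIF, which makes a negative feedback loop, and most control of HIF-1α acts on the protein and is not seen in RNA. Pluripotent stem cells rely heavily on glycolysis even when oxygen is plentiful, and heart muscle cells move towards oxidation of fuels as they mature.

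The promoters of the 4 genes that differed by the test used below, and of Bnip3, the gene with the widest mean spread within groups, are printed first, to show the core HIF sequences that lie close to their starts. Bnip3 was chosen after its values were seen. Each sequence is RefSeq's for mouse build GRCm38.p6 and runs 5′ to 3′ on the gene's own strand. It covers 250 bases before to 50 bases after the most upstream start listed for the gene in the RefSeq table. ACGTG or GCGTG is in capitals, also where it lies on the opposite strand and reads CACGT or CACGC.
Pfkp: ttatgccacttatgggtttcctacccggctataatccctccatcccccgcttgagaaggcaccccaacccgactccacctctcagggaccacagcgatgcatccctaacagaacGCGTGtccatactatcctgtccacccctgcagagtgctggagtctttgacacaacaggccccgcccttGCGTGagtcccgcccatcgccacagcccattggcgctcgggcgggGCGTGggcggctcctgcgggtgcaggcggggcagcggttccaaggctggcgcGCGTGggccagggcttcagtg
Pdk1: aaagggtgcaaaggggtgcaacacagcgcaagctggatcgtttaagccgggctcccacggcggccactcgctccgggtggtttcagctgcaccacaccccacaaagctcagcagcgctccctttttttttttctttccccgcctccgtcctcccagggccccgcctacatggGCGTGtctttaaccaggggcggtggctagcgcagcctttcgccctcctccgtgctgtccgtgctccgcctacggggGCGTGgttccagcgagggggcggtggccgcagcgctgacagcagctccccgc
Ddit4: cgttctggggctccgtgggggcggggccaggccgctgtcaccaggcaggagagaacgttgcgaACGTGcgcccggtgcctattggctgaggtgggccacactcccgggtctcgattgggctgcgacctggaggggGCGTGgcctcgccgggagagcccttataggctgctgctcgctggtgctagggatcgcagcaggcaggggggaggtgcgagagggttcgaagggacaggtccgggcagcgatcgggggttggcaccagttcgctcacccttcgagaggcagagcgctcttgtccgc
P4ha2: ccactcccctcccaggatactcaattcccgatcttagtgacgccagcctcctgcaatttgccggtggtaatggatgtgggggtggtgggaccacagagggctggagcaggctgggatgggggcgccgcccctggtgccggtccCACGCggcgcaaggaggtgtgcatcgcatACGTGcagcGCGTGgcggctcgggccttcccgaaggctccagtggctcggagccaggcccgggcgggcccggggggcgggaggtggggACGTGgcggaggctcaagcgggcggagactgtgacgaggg
Bnip3: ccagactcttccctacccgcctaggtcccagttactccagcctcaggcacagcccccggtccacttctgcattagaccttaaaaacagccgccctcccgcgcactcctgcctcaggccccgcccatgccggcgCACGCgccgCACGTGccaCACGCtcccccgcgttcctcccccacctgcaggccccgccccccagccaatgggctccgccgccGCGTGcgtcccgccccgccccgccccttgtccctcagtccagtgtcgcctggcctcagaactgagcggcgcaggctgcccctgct

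These windows lie at chr13:6648722-6649021 for Pfkp (minus strand), chr2:71872974-71873273 for Pdk1 (plus strand), chr10:59951721-59952020 for Ddit4 (minus strand), chr11:54100674-54100973 for P4ha2 (plus strand) and chr7:138909457-138909756 for Bnip3 (minus strand). Pfkp held 4 such sequences, all GCGTG on the gene's own strand. Pdk1 held 2, and Ddit4 held 1 of each kind. P4ha2 held 4, and Bnip3 held 5, of which 2 were the opposite strands of a single CACGTG, the palindrome that MYC and related factors also bind.

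Of the 31 measured genes 29 had a promoter in the RefSeq table, and Ndrg1 and Slc2a3 were not matched. ACGTG or GCGTG on either strand occurred in 25 of 29 promoters (86.2%), against 43.8% of the promoters of 27025 genes of the same length. ACGTG occurred in 19 (65.5%, against 19.6%) and GCGTG in 17 (58.6%, against 32.5%), while CACGTG, which contains ACGTG on both strands, occurred in 4 (13.8%, against 7.2%). Ldha, the enzyme that makes lactate, held the most, with 7. Aldoa, Hk1, Pkm and Tpi1 held none in this window. Only the most upstream listed start of a gene was used, so any other starts were not examined. The windows of Aldoa and Hk1 held only 0 and 1 CpG dinucleotides. The members' promoters were also richer in G and C, with a median GC content of 65.3% against 52.7% and a median of 24 CpG dinucleotides against 7, and both sequences contain a CpG. The part of base composition in these shares was not tested, and a match is a description, not a site of binding.

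The arrays themselves followed the labels in part. Within a group the lowest correlation between 2 arrays was 0.966 to 0.992. Zfp42, a marker of pluripotency, was lower on every day 4 array, where the summed signal of 8 pluripotency markers ran from 12.97 to 14.10 on the log2 scale against 14.47 to 14.50 at day 0. Pou5f1, which encodes OCT4, read 11.24 to 11.57 at day 0 and 9.80 to 11.37 at day 4. Kdr read 5.50 to 5.78 at day 0 and 9.83 to 10.71 in spontaneous cells. It read only 5.42 on cardiac replicate 1 (10.81 and 9.01 on the other two) and 6.25 and 6.03 on sorted replicates 2 and 3 (10.23 on replicate 1). Pdgfra was likewise at day 0 levels on sorted replicates 2 and 3 (8.47 and 8.29). These 3 libraries thus stand apart in a gene that defined the sort, and results that rest on them are given with and without them.

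Few of the 31 genes were called as changed, and a gene without a call may still have changed. A gene was called when its Benjamini-Hochberg adjusted p in limma, over all 19938 genes, was under 0.05 and its log2 difference was at least 1. Against day 0, spontaneous cells had 0 genes called higher, where the share over all genes was 1.99%, and 2 called lower, Pfkp and Pdk1, against 1.57%. Cardiac cells had 1 called higher, Ddit4, against 1.26%, and 0 lower, against 0.943%. Sorted cells had 0 called higher, against 0.787%, and 2 lower, Pfkp and P4ha2, against 1.32%. Counts of 2 of 31 (6.45%) or 1 of 31 (3.23%) are too few to set the list apart from the background. A moderated F test over the 4 groups called Pfkp (adjusted p = 0.0146) and Hk2 (adjusted p = 0.0313), 2 of 31 or 6.45%, near the 5.86% of all genes.

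The heat map of all 31 genes shows how uneven the set was. Pfkp, Pdk1, Aldoc and P4ha2 were mostly below their day 0 means at day 4, whereas Pfkfb3, Egln1, Slc16a3 and Ldha were mostly above them. Most enzymes of lower glycolysis stayed close to their day 0 levels. In bulk RNA, fewer cells that express a gene and less RNA per cell cannot be told apart.

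**Figure D1:**
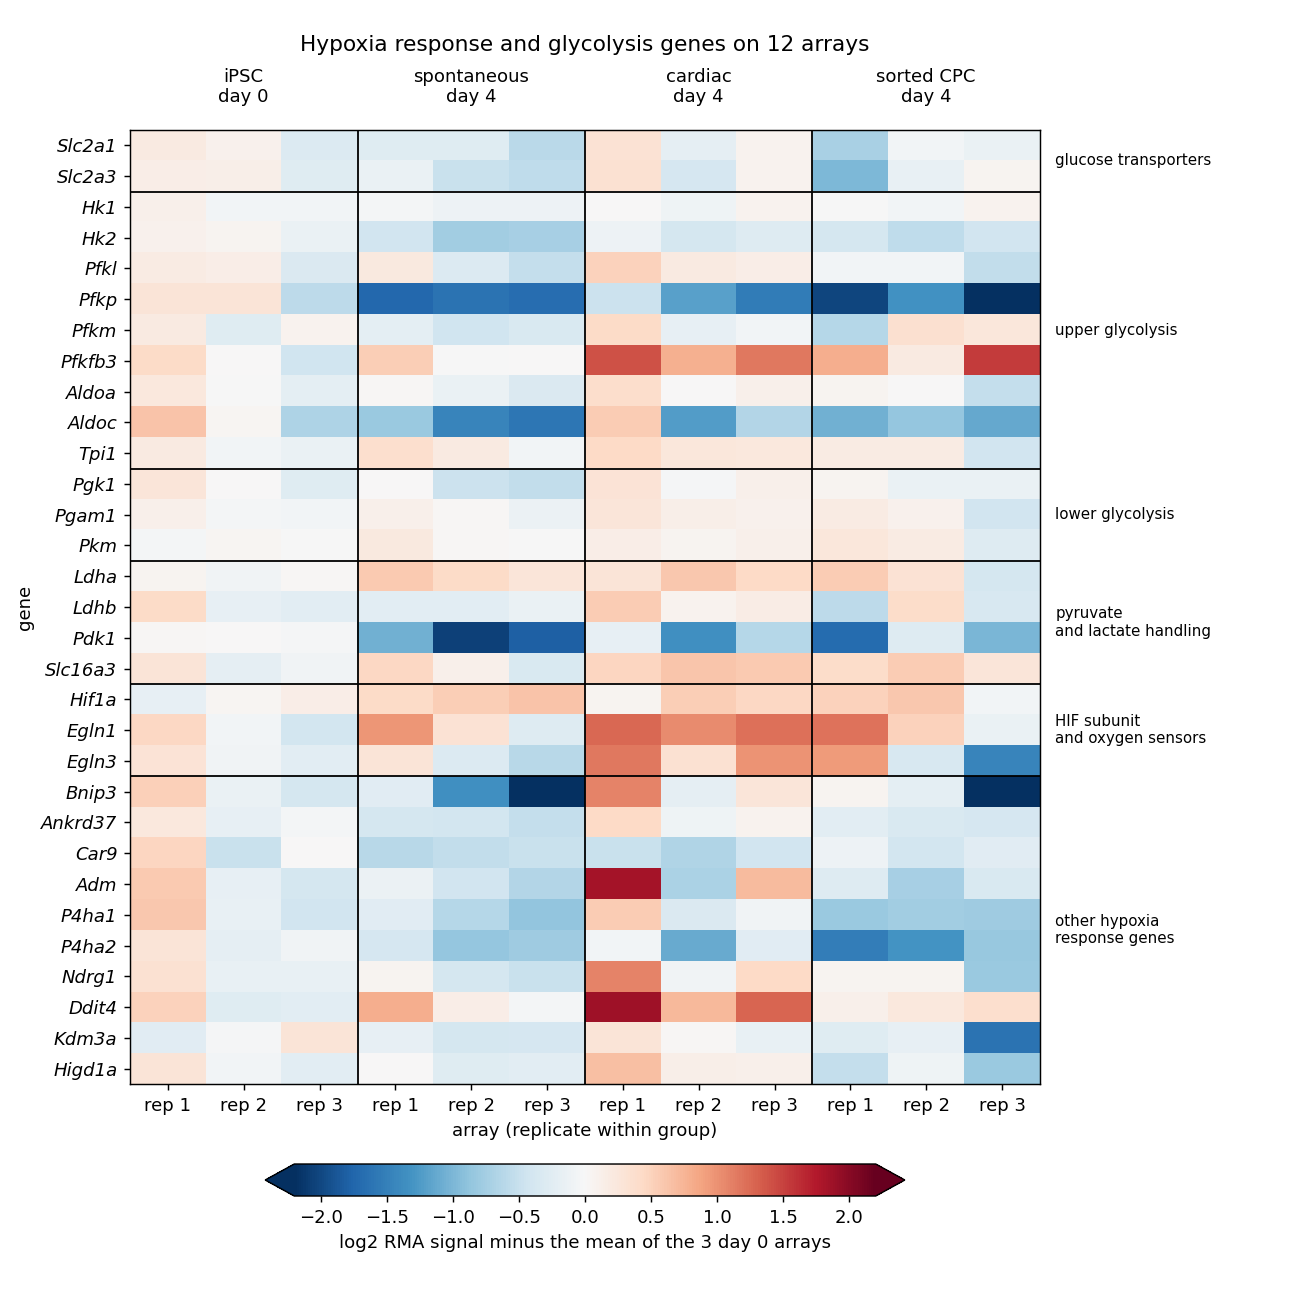
Log2 RMA signal of each of the 31 genes (rows, grouped by role) on each of the 12 arrays (columns, grouped by condition), as the difference from the mean of the 3 day 0 arrays; red is higher, blue is lower and the scale ends at 2.2 in each direction. Pfkp is blue on all 9 day 4 arrays, while Ddit4 is red on the 3 cardiac arrays, and the replicate 1 columns of day 0, spontaneous and cardiac samples are redder than their neighbours.

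Neither glucose transporter was called in any comparison. Slc2a1, the transporter GLUT1, read 12.12, 12.01 and 11.63 at day 0, 11.65, 11.65 and 11.33 in spontaneous cells, 12.24, 11.73 and 11.99 in cardiac cells, and 11.22, 11.86 and 11.78 in sorted cells. The cardiac arrays all lay above the spontaneous ones, and the other groups overlapped. The group means of Slc2a3, the high-affinity transporter GLUT3, followed in the same order, from 12.57 ± 0.36 (SD, n = 3) in cardiac cells and 12.56 ± 0.23 at day 0 to 12.19 ± 0.55 in sorted and 12.16 ± 0.23 in spontaneous cells, and these neighbours did not differ beyond their spread.

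In upper glycolysis, Pfkp, the platelet-type isoform of phosphofructokinase, which catalyses the committed step, was lower in spontaneous and sorted cells. It read 10.40, 10.39 and 9.54 at day 0, 8.39, 8.48 and 8.43 in spontaneous cells, 9.64, 8.92 and 8.56 in cardiac cells, and 8.10, 8.78 and 7.28 in sorted cells. All spontaneous and sorted arrays lay below all day 0 arrays, while cardiac replicate 1 overlapped them. Pfkp fell by 1.68 on the log2 scale in spontaneous cells (SE 0.35, 3.2-fold lower, adjusted p = 0.0109 in limma) and fell by 2.06 in sorted cells (SE 0.35, 4.17-fold lower, adjusted p = 0.00499). In cardiac cells the difference was -1.07 (adjusted p = 0.0928). Leaving out cardiac replicate 1 made it -1.37 (adjusted p = 0.0357), and leaving out either day 0 replicate 1 or 2 ended the call in spontaneous cells (adjusted p = 0.0531 and 0.0513), while the call in sorted cells held in all 18 alternative settings (-2.01 without the 3 libraries that stand apart, where the sorted group is 1 array).

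Neither of the other phosphofructokinase subunits was called. Pfkl, the liver-type subunit, had group means of 10.20 to 10.71, and Pfkm, the muscle-type subunit, of 9.13 to 9.51. Pfkfb3, which makes the activator of phosphofructokinase and is a known HIF target, had higher means in the cardiac and sorted groups without a call. Its mean was 7.05 ± 0.43 at day 0, 7.22 ± 0.32 in spontaneous, 8.16 ± 0.31 in cardiac and 7.89 ± 0.67 in sorted cells (SD, n = 3). Every cardiac array exceeded every day 0 array, by 1.11 on average (SE 0.31), with an adjusted p of 0.0515. Without the 3 libraries that stand apart the difference was 0.97 (adjusted p = 0.0204), under the required difference. Pfkfb3 was called in 6 of 18 alternative settings for cardiac cells against day 0, among them a replicate block and array weights. Its adjusted p-values in limma ran up to 0.170 over all of them.

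Hk2, the inducible hexokinase that traps glucose in the cell, had a mean of 10.41 ± 0.13 at day 0, 9.77 ± 0.18 in spontaneous, 10.15 ± 0.14 in cardiac and 9.96 ± 0.09 in sorted cells. Spontaneous cells lay 0.64 below day 0 with a low adjusted p (0.0075), yet under the required difference of 1. For Hk1, the constitutive hexokinase, the probe set taken by the rule read 12.63 to 12.85 on all 12 arrays. In the platform annotation 16 further probe sets list Hk1 together with Rpl17, a ribosomal protein gene. The other Hk1 probe set read 8.83, 8.40 and 7.76 at day 0, 7.29, 7.01 and 7.11 in spontaneous, 7.96, 7.24 and 7.49 in cardiac, and 6.86, 7.69 and 7.09 in sorted cells. By that probe set Hk1 was lower by 1.19 in spontaneous cells (adjusted p = 0.0160) and by 1.11 in sorted cells (adjusted p = 0.0328). The choice of probe set thus decides the call for Hk1, and the second one was looked at after the data were seen.

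Of the aldolases, which split fructose bisphosphate, Aldoc varied more than Aldoa. Aldoc, the brain-type isoform, had a mean of 9.52 ± 0.66 at day 0, 8.24 ± 0.41 in spontaneous, 9.09 ± 0.91 in cardiac and 8.51 ± 0.15 in sorted cells. All spontaneous and all sorted arrays lay below the day 0 arrays, but the difference of -1.28 in spontaneous cells (SE 0.40) had an adjusted p of 0.0599. It passed in 8 of 18 alternative settings, among them that without day 0 replicate 3 (-1.62, adjusted p = 0.0349). Aldoa, the muscle-type isoform, had means of 12.12 to 12.44, and Tpi1, triose phosphate isomerase, of 11.37 to 11.70, with no call.

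None of the 3 measured enzymes of lower glycolysis was called. Pgk1, phosphoglycerate kinase, which makes the first ATP of the pathway, read 12.28, 12.03 and 11.74 at day 0, 12.03, 11.54 and 11.47 in spontaneous cells, 12.31, 12.00 and 12.13 in cardiac cells, and 12.08, 11.86 and 11.88 in sorted cells. The groups overlapped throughout, and the largest difference in this class, 0.47 between cardiac and spontaneous cells, was of Pgk1. Pgam1, phosphoglycerate mutase, had means of 10.93 to 11.14, and Pkm, pyruvate kinase, of 12.00 to 12.11. Pgk1 and Pgam1 each had a second probe set with identical values on every array, so their signals may include near-identical copies. Gapdh, measured only through 25 probe sets that also list other genes, had a mean over them of 13.03 to 13.26 per array.

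Among genes of pyruvate and lactate handling, Pdk1 was lower in spontaneous cells. Pdk1 is the kinase that inactivates pyruvate dehydrogenase and so keeps pyruvate out of the mitochondrial cycle. Its signal was 10.02, 9.99 and 9.96 at day 0, 8.93, 7.94 and 8.20 in spontaneous cells, 9.80, 8.64 and 9.36 in cardiac cells, and 8.30, 9.72 and 8.99 in sorted cells. The 3 day 0 arrays were close together (SD 0.03) and above all 9 day 4 arrays, which spread widely. Pdk1 fell by 1.64 in spontaneous cells (SE 0.35, 3.11-fold lower, adjusted p = 0.0120 in limma), and differed by -0.72 in cardiac cells (adjusted p = 0.246) and by -0.99 in sorted cells (adjusted p = 0.136). Without spontaneous replicate 2 or 3 the call was lost (adjusted p = 0.0641 and 0.0533). Without sorted replicate 2, a library at the day 0 level of Kdr, the sorted difference was -1.35 (adjusted p = 0.0443), and with all 3 libraries that stand apart left out it was -1.69 (adjusted p = 0.00631), where the sorted group is a lone array assumed to vary like the other groups.

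Ldha, which turns pyruvate into lactate, had a mean of 11.86 ± 0.08 at day 0, 12.28 ± 0.16 in spontaneous, 12.30 ± 0.16 in cardiac and 12.03 ± 0.50 in sorted cells. All spontaneous and all cardiac arrays exceeded the day 0 arrays, with differences of 0.42 and 0.44 that were not called (adjusted p = 0.187 and 0.184). Slc16a3, the lactate exporter MCT4, stood 0.56 higher in cardiac cells than at day 0 without overlap (10.50 ± 0.07 against 9.94 ± 0.25, adjusted p = 0.0879). Ldhb, the subunit that favours the reverse reaction, had means of 8.71 to 9.18 and no call.

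**Figure D2:**
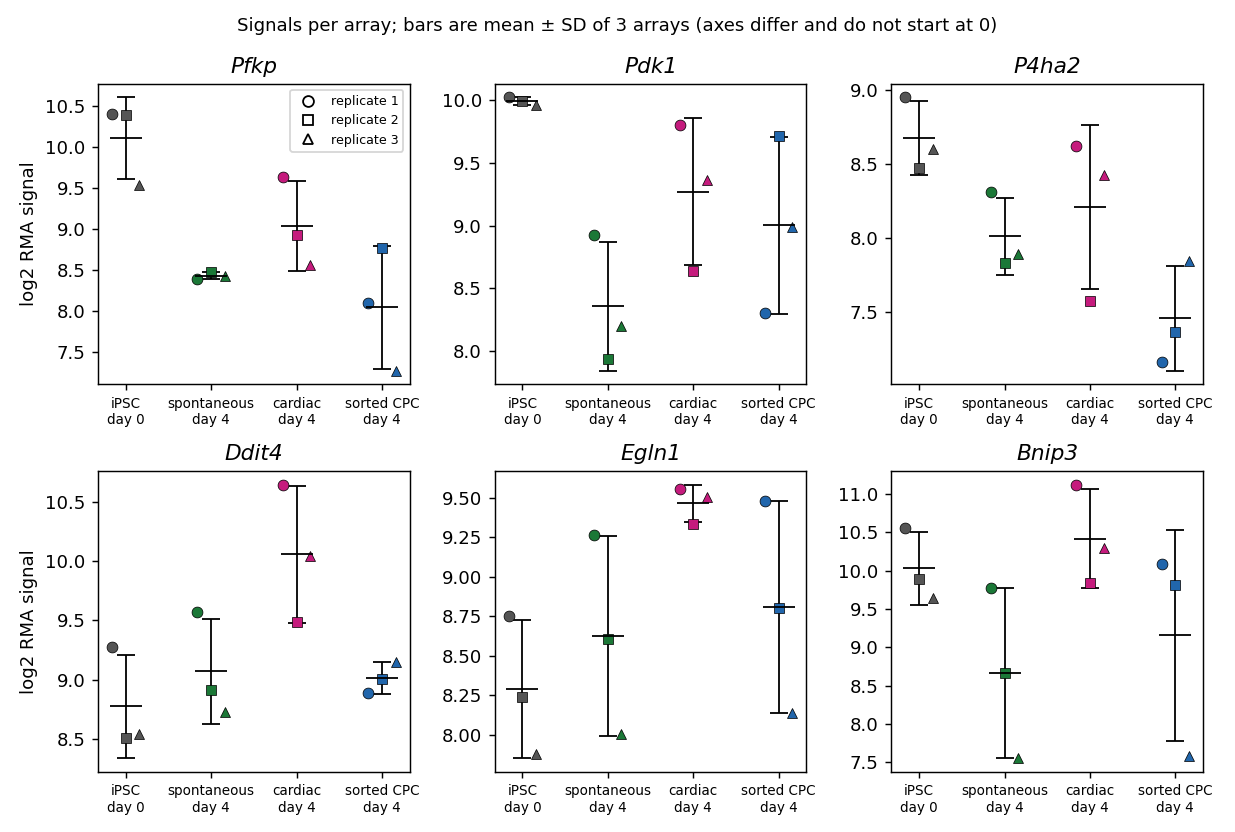
Log2 RMA signal of 6 genes on each array (circle, square and triangle for replicates 1, 2 and 3), with the mean and SD of the 3 arrays of each group; the vertical axes differ between panels and do not start at 0. Pdk1 lies between 9.96 and 10.02 on the day 0 arrays and lower on every day 4 array, whereas Bnip3 spans 7.56 to 9.77 within the spontaneous group alone.

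Hif1a, the oxygen-regulated subunit of HIF-1, read 9.51, 9.74 and 9.85 at day 0, 10.13, 10.24 and 10.33 in spontaneous cells, 9.77, 10.25 and 10.15 in cardiac cells, and 10.21, 10.29 and 9.64 in sorted cells. All spontaneous arrays exceeded the day 0 arrays, by 0.53 on average (SE 0.18, adjusted p = 0.0806), and the other groups overlapped day 0. Egln1, the main prolyl hydroxylase, read 8.75, 8.24 and 7.88 at day 0, 9.27, 8.61 and 8.00 in spontaneous cells, 9.56, 9.33 and 9.51 in cardiac cells, and 9.48, 8.81 and 8.14 in sorted cells. The cardiac arrays were tightly grouped and above all day 0 and all spontaneous arrays. Against day 0 the difference of 1.17 for Egln1 (SE 0.34, 95% interval 0.43 to 1.92) had an adjusted p of 0.0620. It was called in 6 of 18 alternative settings, with adjusted p-values up to 0.190 over all of them: it passed at 1.13 (adjusted p = 0.0311) without the 3 libraries that stand apart and at 1.36 (adjusted p = 0.0152) without replicate 1 in every group. Egln3, the hydroxylase most strongly induced by hypoxia in many cells, had means of 8.22 ± 0.27 at day 0, 8.01 ± 0.45 in spontaneous, 9.05 ± 0.44 in cardiac and 7.94 ± 1.19 in sorted cells, with no call.

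Of the 10 other hypoxia response genes, Ddit4 was higher in cardiac cells and P4ha2 was lower in sorted cells. Ddit4 encodes REDD1, a stress-induced inhibitor of mTORC1 signalling. It read 9.28, 8.50 and 8.54 at day 0, 9.57, 8.91 and 8.72 in spontaneous cells, 10.65, 9.49 and 10.05 in cardiac cells, and 8.89, 9.00 and 9.15 in sorted cells. The cardiac arrays all exceeded the day 0 arrays and the sorted arrays, but overlapped the spontaneous ones. Ddit4 rose by 1.29 against day 0 (SE 0.29, 2.44-fold, adjusted p = 0.0226 in limma). The call was lost without day 0 replicate 2 or 3 or cardiac replicate 3 (adjusted p = 0.0969, 0.0768 and 0.0641) and after cyclic loess normalization (adjusted p = 0.0628), and without cardiac replicate 1 the difference of 0.99 (adjusted p = 0.0484) was under the required size, as it was without all 3 libraries that stand apart (0.99, adjusted p = 0.0330).

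P4ha2, a subunit of the prolyl hydroxylase that matures collagen, read 8.95, 8.47 and 8.60 at day 0, 8.31, 7.83 and 7.89 in spontaneous cells, 8.62, 7.58 and 8.43 in cardiac cells, and 7.16, 7.36 and 7.85 in sorted cells. Spontaneous and sorted arrays all lay below day 0, and the cardiac arrays spread across both. P4ha2 fell by 1.22 in sorted cells (SE 0.26, 2.33-fold lower, adjusted p = 0.0175), a call lost without day 0 replicate 1 (adjusted p = 0.0891) or sorted replicate 1 (adjusted p = 0.0617). Without the 3 libraries that stand apart it was -1.52, with the sorted group as 1 array. Its paralogue P4ha1 differed by -0.78 in sorted cells (adjusted p = 0.114). The summed signal of markers of fibroblasts or feeder cells, which make collagen, was also lower at day 4 than at day 0. The summed signal of 7 of 7 listed markers was 9.79 to 10.51 at day 0, 9.35 to 9.60 in spontaneous, 9.09 to 9.42 in cardiac and 9.24 to 9.54 in sorted cells. These ranges overlapped among the day 4 groups. The P4ha2 mean was 8.21 in cardiac, 8.01 in spontaneous and 7.45 in sorted cells. The part of these markers in the P4ha2 result was not tested.

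Bnip3, a receptor for removal of mitochondria and a classical HIF target, varied widely within groups. It read 10.56, 9.89 and 9.64 at day 0, 9.77, 8.67 and 7.56 in spontaneous cells, 11.12, 9.84 and 10.30 in cardiac cells, and 10.09, 9.81 and 7.58 in sorted cells. The spread within the spontaneous and sorted groups exceeded 2 log2 units, and differences from day 0 of -1.36 in spontaneous cells (SE 0.63, adjusted p = 0.207) and -0.87 in sorted cells (adjusted p = 0.509) were not called. Adm, which encodes the vasodilator adrenomedullin, spread as widely in cardiac cells, at 8.17, 5.64 and 7.02. Egln3 spanned 6.77 to 9.16 in sorted cells.

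The remaining hypoxia response genes were not called in any comparison. Ankrd37, a HIF target of little known function, had group means of 6.37 to 6.95, and Car9, the carbonic anhydrase that acidifies the surroundings of hypoxic cells, of 4.74 to 5.29. The deposited values hold no background measurement, so whether Car9, the dimmest of the 31 probe sets, was detected cannot be said. Ndrg1, a stress-responsive gene, had means of 8.49 to 9.25, Kdm3a, a histone demethylase, of 8.63 to 9.37, and Higd1a, a mitochondrial protein, of 6.45 to 7.23.

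Cardiac and spontaneous cells, both at day 4, were compared next, which asks how the directed protocol differs from undirected differentiation. Of the 31 genes, 30 had a higher mean in cardiac cells, all but Hif1a (-0.17), with a median difference of 0.47, while 43.3% of all genes were higher and their median difference was -0.02. Such shares include dim genes, whose highest group mean was not above the median level of all genes. With dim genes left out, 29 of 30 members were higher, against 48.8% of 10805 genes. No gene was called in either direction, among the members or among all 19938 genes (0%), and every member's adjusted p was 0.999. At an unadjusted p under 0.05 there were 16 of 31 members, against 3.73% of all genes. In 13 of 31 every cardiac array exceeded every spontaneous array, against 5.23% of all genes, and in 0 of 31 the reverse held.

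The largest differences were of Bnip3 (1.75, 95% interval 0.39 to 3.11) and Egln3 (1.03, 0.06 to 2.01). Adm (1.01, 0.01 to 2.00) and Ddit4 (0.99, 0.36 to 1.62) followed. Over 18 alternative settings the difference ran from 1.19 to 2.30 for Bnip3 and from 0.83 to 1.28 for Egln3. It ran from 0.40 to 1.66 for Adm and from 0.70 to 1.28 for Ddit4. Adm read 8.17 on cardiac replicate 1, which stands apart in Kdr, and 5.64 and 7.025 on replicates 2 and 3. Among genes of glycolysis and pyruvate handling, Pfkfb3 (0.93) and Pdk1 (0.92) led, Pgk1 stood at 0.47, and Pkm (0.04) and Ldha (0.02) were near equal. The median over the 10 other hypoxia response genes was 0.61 and over the 9 genes of upper glycolysis 0.39.

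**Figure D3:**
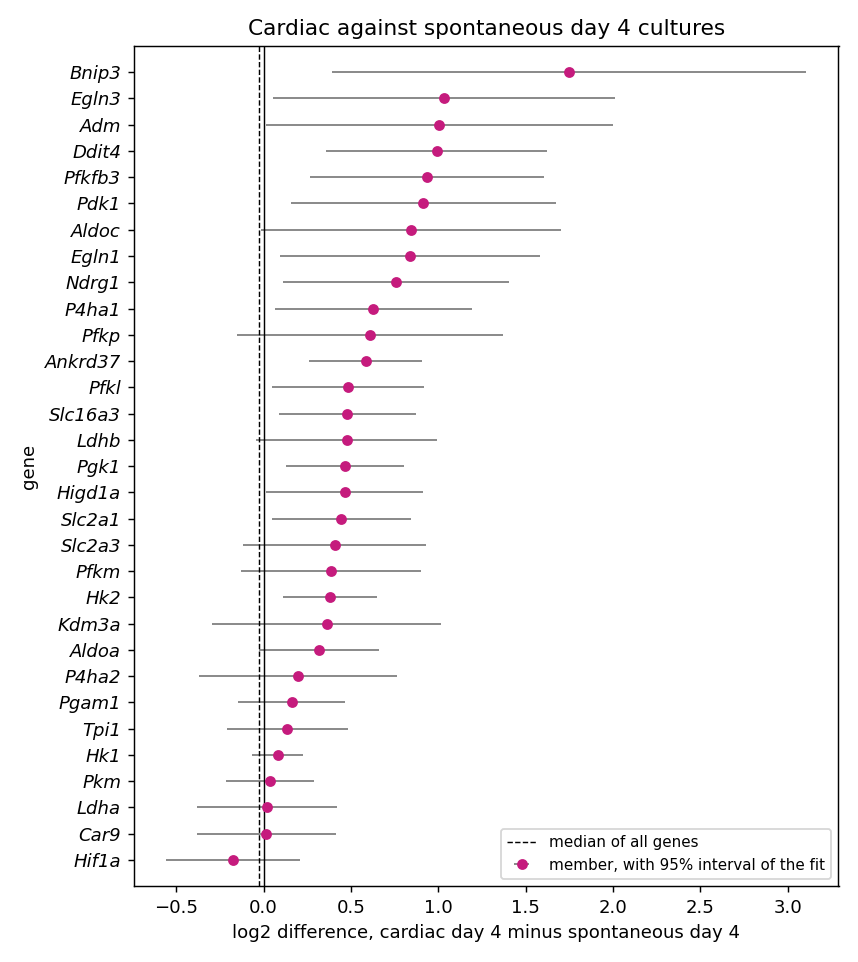
Log2 difference of each of the 31 genes between cardiac and spontaneous day 4 cells (points) with the 95% interval of the limma fit (bars); the solid line marks no difference and the dashed line the median of all genes. All points but that of Hif1a lie to the right of both lines, from 0.02 for Car9 to 1.75 for Bnip3.

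The size of this shift depended on single libraries, and its direction less so. The genes varied together within groups, with replicate 1 highest for 26 of 31 in both cardiac and spontaneous cells. Counts of genes are therefore not counts of independent observations of the cultures. Leaving out 1 library at a time gave medians of 0.32 to 0.55, with 28 to 30 of 31 genes higher. The number of genes with an unadjusted p under 0.05 was 6 without cardiac replicate 1 (1.82% of all genes). It was 8 without spontaneous replicate 2 (1.25%) and 4 without spontaneous replicate 3 (1.57%). Leaving out any other single library of either group gave 12 to 19 (4.66% to 8.88%). Without the 3 libraries that stand apart the median was 0.32, 28 genes were higher and 10 had an unadjusted p under 0.05 (3.62% of all genes). With a replicate block the median was 0.47, with 30 genes higher and 19 at that p (3.93%). With the block and without those libraries the median was 0.39, with 30 higher. Markers of visceral endoderm, an extraembryonic tissue that can form in differentiating cultures, moved in the same direction: all 6 (Ttr, Apoa1, Apob, Afp, Amn and Cubn) had a higher mean in cardiac than in spontaneous cells, with a median difference of 1.80 and no call, and Ttr, Apoa1, Apob and Afp were called higher in cardiac cells than at day 0. Their summed signal was 9.65 to 10.03 at day 0, 9.94 to 11.56 in spontaneous, 11.34 to 13.23 in cardiac and 10.04 to 11.30 in sorted cells, with the highest value of the cardiac and of the spontaneous group on replicate 1. Of the 8 pluripotency markers 7 also had a higher mean in cardiac than in spontaneous cells (median difference 0.23, none called), and their summed signal was 13.92, 13.36 and 13.65 in cardiac and 13.47, 12.97 and 13.40 in spontaneous cells, again highest on replicate 1 of both. The part of either list in the members' difference was not tested.

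**Figure D4:**
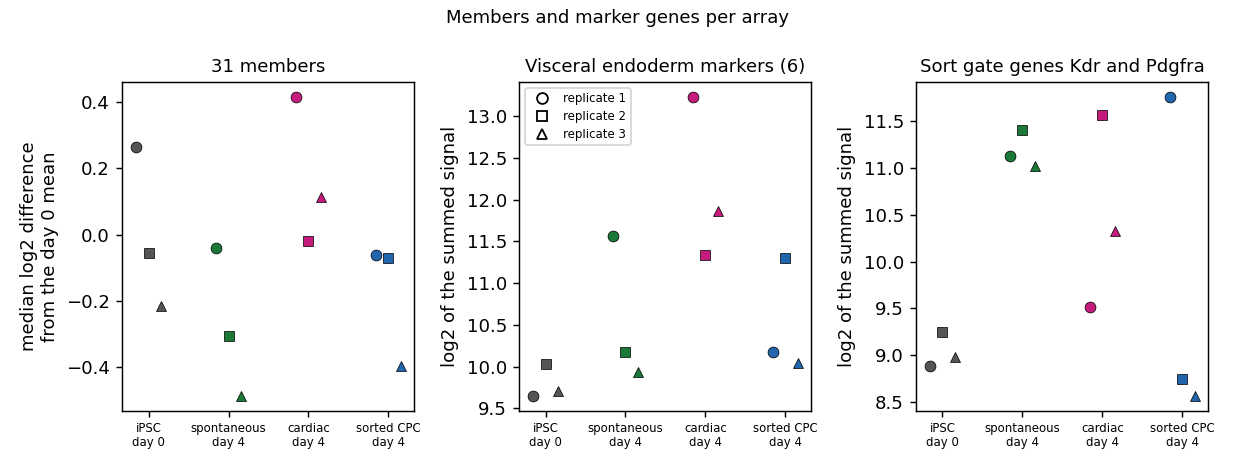
Per array, the median log2 difference of the 31 genes from their day 0 means (left), the log2 summed signal of 6 visceral endoderm markers (middle) and that of the sort gate genes Kdr and Pdgfra (right); circles, squares and triangles are replicates 1, 2 and 3. Cardiac replicate 1 is highest in the left panel (0.41) and the middle panel (13.23) and lowest of its group in the right panel (9.51).

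Sorted cells were set against the cardiac culture and against spontaneous cells. The labels do not say which culture they were sorted from. Against cardiac cells, no gene was called higher or lower, among the members or among all genes (0%). The median difference of the 31 genes was -0.38, 2 of 31 were above 0 where 54.0% of all genes were, and 11 had an unadjusted p under 0.05, against 15.7%. With dim genes left out, 1 of 30 members was above 0 where 30.7% of the 10805 genes kept were. At that p there were then 11 members, against 11.6% of genes. In 8 of 31 every sorted array lay below every cardiac array, against 5.30% of all genes. Without the 3 libraries that stand apart the median was -0.17 and 10 of 31 were above 0. With a replicate block and without those libraries the median was -0.69 and 3 were above 0. In both fits the sorted group is 1 array. The number at an unadjusted p under 0.05 was 3 without cardiac replicate 1 (13.1% of all genes) and 7 without cardiac replicate 3 (21.7%). Leaving out any other single library of either group gave 8 to 16 (9.36% to 30.3%). The 8 genes lower on every sorted array were Ddit4 (-1.05, adjusted p = 0.265 in limma), Ankrd37, Higd1a, Hk2, Kdm3a, P4ha1, Pfkl and Tpi1. Car9 alone was higher on every sorted array than on every cardiac array. All 6 visceral endoderm markers were also lower in sorted cells (median difference -1.44), and their part was not tested.

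Against spontaneous cells the sorted fraction had a median close to 0 that turned with single arrays. The median difference was 0.03, and 16 of 31 genes were above 0, against 54.5% of all genes. With dim genes left out 15 of 30 were, against 34.1%. None of the 31 was called higher (0.00502% of all genes, a single gene) or lower (0%). Leaving out 1 library at a time moved the median from -0.10 without sorted replicate 1 to 0.15 without spontaneous replicate 1, where 23 were above 0. It was -0.07 with 11 above 0 without spontaneous replicate 3, and 0.14 with 24 above 0 without sorted replicate 3. Without the 3 libraries that stand apart the median was 0.14 with 19 above 0, and with a replicate block as well it was -0.01 with 14 above 0. At an unadjusted p under 0.05 there were 0 of 31 genes in limma, against 11.6% of all genes. That number was 5 without spontaneous replicate 1 (9.56% of all genes) and 2 without sorted replicate 3 (8.81%). It was 3 without sorted replicate 1 (11.2%) and 3 without sorted replicate 2 (22.1%). A replicate block gave 3 (12.2%), and leaving out replicate 1 in every group gave 6 (10.1%). No such count is given without the libraries that stand apart, where the sorted group is 1 array. The widest differences were of Pfkfb3 (0.66) and Pdk1 (0.65) on the higher side and P4ha2 (-0.56) on the lower.

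Against day 0 the shifts of the whole set were small. The median difference was -0.27 in spontaneous cells, with 9 of 31 above 0 and 11 at an unadjusted p under 0.05 (24.0% of all genes), and -0.24 in sorted cells, with 8 above 0 and 10 at that p (19.3% of all genes). In cardiac cells it was 0.16, with 24 above 0 and 7 at that p (22.4% of all genes). Over all genes 43.8% were above 0 in spontaneous, 54.9% in sorted and 41.8% in cardiac cells, with medians of -0.03, 0.03 and -0.05. With dim genes left out these shares were 56.5%, 48.7% and 58.3%, against 9, 8 and 24 of 30 members. These 3 comparisons share the day 0 arrays. Without day 0 replicate 1 the medians were -0.11 in spontaneous, 0.26 in cardiac and -0.07 in sorted cells. In spontaneous cells 5 genes were then left at an unadjusted p under 0.05 (19% of all genes), and without spontaneous replicate 2 there were 7 (17.9%). Without cardiac replicate 1 the cardiac median was 0.05 with 18 genes above 0 and 12 at that p (24.2%). Without sorted replicate 3 the sorted median was -0.08. Without spontaneous replicate 1 the spontaneous median was -0.41 with 6 above 0. Without the 3 libraries that stand apart the medians were 0.05 in cardiac and -0.06 in sorted cells. With a replicate block as well they were 0.17 with 22 above 0 in cardiac and -0.36 with 8 above 0 in sorted cells. In both fits the sorted group is 1 array.

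The 31 genes also varied together within groups. On the replicate 1 array the signal was the highest of its group for 28 of 31 genes at day 0, 26 of 31 in spontaneous cells and 26 of 31 in cardiac cells, against 33.2%, 32.5% and 29.9% of all genes. In sorted cells replicates 1 and 2 led for 13 genes each and replicate 3 for 5. For 21 of 31 genes (67.7%) replicate 1 was highest in day 0, spontaneous and cardiac cells alike, against 5.43% of all genes. For 10 genes it was highest in all 4 groups (32.3%, against 0.933%): Hk2, Pfkl, Aldoa, Pgk1, Pgam1, Egln1, Egln3, Bnip3, Ankrd37 and Adm. Hif1a was not among the 21, nor were Pkm, Ldha and Slc2a1.

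**Figure D5:**
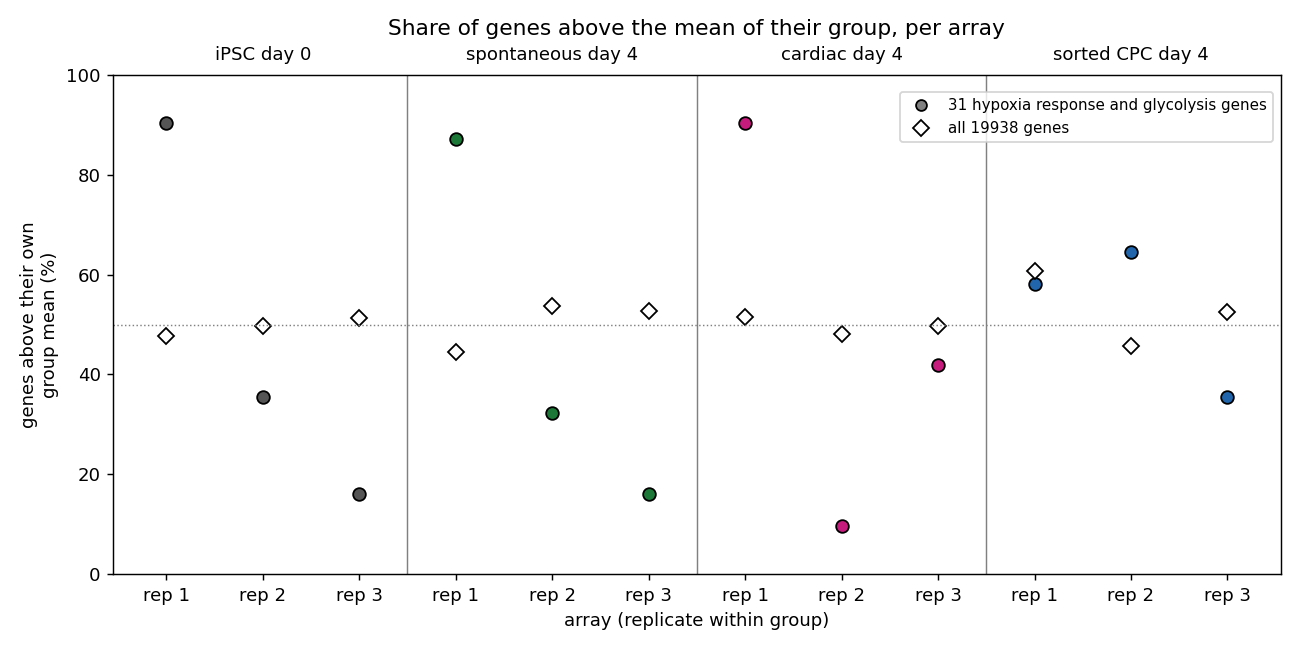
Share of genes above the mean of their own group on each array, for the 31 hypoxia response and glycolysis genes (filled circles) and for all 19938 genes (open diamonds), with the dotted line at 50%. The circles reach 90.3% on replicate 1 of day 0 and of cardiac cells and fall to 9.68% on cardiac replicate 2, while the diamonds stay between 44.4% and 60.8%.

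The set also had wider spreads than the array as a whole. The median SD of the members was 0.26 at day 0, 0.21 in spontaneous, 0.26 in cardiac and 0.35 in sorted cells, against 0.12, 0.10, 0.18 and 0.20 for all genes. The widest mean ranges within a group were those of Bnip3 (1.73), Egln3 (1.16), Adm (1.11), Aldoc (1.03) and Egln1 (0.93). The narrowest were those of Hk1 by the probe set taken (0.13), Pkm (0.24) and Hk2 (0.25). The other Hk1 probe set ran from 7.76 to 8.83 at day 0 alone. This pattern was noticed in the data. The labels name no batch, passage or culture density, so whether samples of the same number were handled together is unknown. Visceral endoderm markers were highest on replicate 1 in spontaneous and cardiac cells but lowest there at day 0 (9.65), and their part was not tested.

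Other genes of the pathway, from lists written from textbook membership, had few calls against day 0 and none between day 4 groups. Between day 4 groups at most 0.00502% of all genes were called in either direction. Of 17 other glycolysis isoenzymes and regulators, only Slc16a1, the lactate transporter MCT1, was called, higher in cardiac cells by 1.13 (SE 0.17, adjusted p = 0.00213). Of 11 genes of pyruvate dehydrogenase and pyruvate import, Pdk4, another kinase of that complex, was lower in spontaneous (-2.02, adjusted p = 0.00127), cardiac (-1.39, adjusted p = 0.0128) and sorted cells (-1.82, adjusted p = 0.00299). It read 7.41, 7.42 and 7.06 at day 0 and at most 6.44 on the day 4 arrays. None of 13 other components of the HIF pathway, 6 of the pentose phosphate pathway or 7 of gluconeogenesis was called. Against day 0 only 0.787% to 1.99% of all genes were called in a given direction, so these counts set no list apart.

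Of 36 other genes known to be induced by hypoxia, 5 were called, in both directions. In spontaneous cells 1 was called higher and 2 lower (1.99% and 1.57% of all genes), in cardiac cells 2 and 2 (1.26% and 0.943%), and in sorted cells 1 and 2 (0.787% and 1.32%), counts too few to set the list apart. Rragd, a GTPase of amino acid sensing, was higher by 2.88 in spontaneous, 2.93 in cardiac and 2.86 in sorted cells, and read at most 6.70 at day 0 and at least 8.12 at day 4. Gbe1, the glycogen branching enzyme, named after its values were seen, was higher in cardiac cells (1.20, adjusted p = 0.0322). Lox, which cross-links collagen, was lower in all 3 day 4 groups (-1.11 to -1.23), Edn1, the vasoconstrictor endothelin-1, in spontaneous (-1.45) and cardiac cells (-1.54), and Plod1, a collagen lysyl hydroxylase, in sorted cells (-1.26, adjusted p = 0.000544). Lox and Plod1 act on collagen, which fibroblasts make, and 6 of the 7 fibroblast or feeder markers had lower means in each day 4 group than at day 0 (median differences -0.58, -0.71 and -0.62, with 2, 2 and 1 called lower). Their part in these results was not tested. Vegfa, the angiogenic HIF target, was not called. It read 8.89, 8.48 and 8.10 at day 0, 8.00, 7.84 and 7.60 in spontaneous cells, 9.21, 8.21 and 8.41 in cardiac cells, and 7.77, 8.00 and 8.87 in sorted cells. Between cardiac and spontaneous cells 33 of these 36 genes were higher in cardiac cells, with a median of 0.30 and no call, where 43.3% of all genes were higher with a median of -0.02. Leaving out 1 library of either group at a time gave 31 to 33 of 36 higher and medians of 0.20 to 0.39.

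Of 6 measured upstream regulators of glycolysis, Esrrb, a pluripotency factor that also acts on metabolic genes, was lower in all 3 day 4 groups (-2.54 to -2.91). Lin28b, which blocks let-7 maturation, was higher in all 3 (1.03 to 1.23). Myc, which activates many glycolytic genes, was called higher in spontaneous cells (1.85, SE 0.53, adjusted p = 0.0458 in limma). On cardiac replicate 1 Myc read 6.65, below the 7.14 to 7.65 of day 0. In spontaneous cells 2 of the 6 were called higher and 1 lower, against 1.99% and 1.57% of all genes. In cardiac cells the counts were 1 and 1 (1.26% and 0.943%), and in sorted cells 1 and 1 (0.787% and 1.32%). These counts are too few to set the list apart.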

How the data were processed

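RNA of 12 samples (4 groups of 3) was measured on Affymetrix whole-transcript arrays. Per the submitters' processing notes, RMA was run in Affymetrix Expression Console 1.3.1, and the authors deposited the resulting log2 signals, 1 per probe set. Base 2 was inferred from their range (1.87 to 13.87). Arrays give no read depth, and their number limits the precision.

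Of 35557 probe sets, 21789 were annotated with 1 gene symbol, 1621 with several and 12147 with none. The brightest single-symbol probe set per gene gave 19938 genes, fitted over all 12 arrays with limma 3.58.1 in R 4.3.3 (lmFit, contrasts, eBayes with an intensity trend) for 6 comparisons, with Benjamini-Hochberg adjustment over all genes. Calls needed an adjusted p under 0.05 and a log2 difference of at least 1. The procedure was tested on simulated data. Promoters came from RefSeq (GRCm38.p6).

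Values on every array are given for called members, Hif1a and, in role lists without a call, the member with the largest difference. For the other pathway lists, up to 3 called genes per comparison and Vegfa are named. The members and lists were chosen with earlier results of these data known. Alternatives changed the normalization, filter, probe set, weights, blocking and samples. The next probe set, the replicate block without the libraries that stand apart, and the omission of replicate 1 in every group were added after seeing the data.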

Additional observations from a re-analysis of the deposited data

How the results depend on the processing

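The 5 calls of members kept their direction in all 90 alternative values and stayed called in 76 of them; where a call was lost the cause was not tested. In spontaneous cells against day 0, the 2 genes called lower (1.57% of all genes) became 4 with array weights (1.91%) and 4 without the 3 libraries that stand apart in Kdr (1.82%). They became 4 with that omission and a replicate block (1.83%), and 1 to 3 when 1 sample at a time was left out (1.1% to 1.54%). Pfkp lost its call there without replicate 1 in every group (-1.51), where Aldoc was called lower (1.58% of all genes). Aldoc was also called lower with a replicate block (1.52%), with dim genes left out (2.67% of those kept) and with the 2 groups fitted alone (1.8%). Hk1 was called lower by its next probe set (1.58%).

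In cardiac cells, the 1 gene called higher (1.26% of all genes) became 3 with a replicate block (1.25%), 3 with array weights (1.43%) and 2 with dim genes left out (2.32% of those kept). It became 2 with arrays centred on their medians (1.28%), 0 with cyclic loess (1.11%) and 3 with the block and without the libraries that stand apart (2.47%). The count was 2 without replicate 1 in every group (2.05%), 3 when the 2 groups were fitted alone (1.36%), and 0 to 1 when leaving out 1 sample (0.787% to 1.97%). The count called lower, 0 in the report (0.943% of all genes), was 1 with the block (0.928%) and with array weights (1.05%). It was 1 without the libraries that stand apart (1.58%) and with both the block and that omission (1.56%), and 0 to 1 when leaving out 1 sample (0.557% to 1.3%).

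In sorted cells, the 0 called higher (0.787% of all genes) became 0 to 1 when leaving out 1 sample (1 without sorted replicate 2, 0.617%). The 2 called lower (1.32%) became 1 without replicate 1 in every group (P4ha2 lost, -0.94, 0.963% of all genes), and 1 to 3 when leaving out 1 sample (0.938% to 1.7%). Pdk1 was also called lower with array weights (1.77% of all genes), and Hk1 by its next probe set (1.32%). With the block and without the libraries that stand apart the sorted group is 1 array, so no count is given. The median difference there was -0.36 against day 0 and -0.69 against cardiac cells.

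The replicate numbers were not taken to pair the samples, since not every same-numbered pair had deviations correlated over 0.1: over all genes 6 of 18 did (-0.38 to 0.31), and 5 of 12 arrays correlated best with their own number. Over the 31 members alone 12 of 18 did, against 5 of 36 pairs of other numbers. No background level came with the values, which limits what can be said of dim genes such as Car9.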
